A study of Mus musculus with 6 samples.

Results

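Leptin reaches the cell through a receptor of the class I cytokine receptor family, and the 10 genes described here are the ligand Lep, the leptin receptor Lepr, 5 receptor genes of the related gp130 group (Il6st, Lifr, Osmr, Il6ra and Cntfr) and 3 Janus kinase genes (Jak1, Jak2 and Tyk2). They were taken by symbol from a deposited table of 54309 genes and 140789 transcripts, in which each of the 10 has 1 Ensembl gene identifier and all of them together have 59 transcripts. The table holds 6 RNA-seq libraries of neuron-enriched cells from the dorsal root ganglia (DRG, where the cell bodies of sensory neurons lie) of lumbar levels 4 to 6 of male C57bl/6 mice aged 8 to 10 weeks. In 3 libraries the mice had been given AAV-GFP, an adeno-associated virus that delivers green fluorescent protein, and in the other 3 AAV-Leptin-GFP, which delivers leptin as well. Either vector went into the left and right sciatic nerve 4 weeks before a dorsal column axotomy, a cut of the central branch of the sensory axons in the spinal cord, and cells were taken 24 hours after the cut. Both groups therefore carry a vector and an injury, and no uninjured or uninjected group enters the comparison. The promoter and serotype of the vectors, and whether a library came from 1 animal or a pool, are not stated in the sources used here. The p-values below therefore set the difference between the groups against the scatter of these libraries, and some of that scatter may be technical.

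As background, leptin is a hormone made mainly by fat cells. The long form of its receptor binds the kinase JAK2 and activates the transcription factor STAT3, whereas the short forms share the ligand-binding part and lack most of the intracellular tail. The receptors of the gp130 group work in the same way: gp130, encoded by Il6st, is the shared signalling chain, Lifr and Osmr pair with it, and Il6ra and Cntfr are ligand-binding chains for interleukin 6 and ciliary neurotrophic factor. The Janus kinases sit on the tails of these receptors. In sensory neurons, cytokines of this group are known from work on nerve injury and axon regrowth.

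Levels are in TPM (a length-corrected share of the transcripts of a library, scaled to the same total in each), so they may be compared between genes, and read depth is unknown. Differences are AAV-Leptin-GFP minus AAV-GFP on log2(TPM + 1), from a limma fit over those 15108 genes that averaged 1 TPM or more, with Benjamini-Hochberg adjusted p-values over all of them. A gene was called at an adjusted p under 0.05. Means are given ± SD with n = 3 libraries a group. Positions are on GRCm38 from GENCODE M21, and sequences were read from the transcripts of the same release. All 59 transcripts were found there by identifier, although the deposited versions differ from that release.

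The sequences below show what separates the transcripts that carry ligand and receptor. The 2 Lep transcripts share their first 294 coding bases, spliced from chr6:29068952-29070972 on the plus strand. They are printed because this gene encodes the ligand, and the start codon is in capitals. Whether the vector carries these bases is not stated in the sources used here.
Lep, shared coding bases: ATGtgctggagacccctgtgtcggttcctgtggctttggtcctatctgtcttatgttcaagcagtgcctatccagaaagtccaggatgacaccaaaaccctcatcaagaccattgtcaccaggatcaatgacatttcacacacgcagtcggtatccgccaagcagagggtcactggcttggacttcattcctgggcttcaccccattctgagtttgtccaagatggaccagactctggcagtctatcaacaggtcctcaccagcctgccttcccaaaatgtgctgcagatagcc
The 3 complete Lepr forms share 2667 coding bases and then part, which decides whether the receptor has a signalling tail. The 45 bases before the fork are in lower case and the bases of each form alone are in capitals. The short form, Lepr-203, has 15 such bases (chr4:101792026-101811362 for the stretch shown, plus strand), the read-through form Lepr-202 has 9, and the long form Lepr-201 has 819, of which the first 90 are shown.
Lepr short form: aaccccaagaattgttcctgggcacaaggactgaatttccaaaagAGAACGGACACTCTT
Lepr read-through form: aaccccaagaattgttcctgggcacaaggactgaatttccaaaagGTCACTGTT
Lepr long form: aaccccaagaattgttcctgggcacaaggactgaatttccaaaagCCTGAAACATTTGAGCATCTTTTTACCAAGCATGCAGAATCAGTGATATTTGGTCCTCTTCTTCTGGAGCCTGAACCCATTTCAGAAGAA
In Lifr, transcripts of 3276 coding bases encode the full receptor, and others of 2157 end soon after a fork at coding base 2152, before the last part of the receptor. A soluble LIF receptor is known in mice. The stretch shown lies within chr15:7184774-7185655 on the plus strand, with the bases of 1 form alone in capitals.
Lifr full-length form: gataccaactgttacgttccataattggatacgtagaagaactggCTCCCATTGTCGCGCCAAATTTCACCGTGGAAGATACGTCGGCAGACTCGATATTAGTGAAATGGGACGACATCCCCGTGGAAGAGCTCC
Lifr shorter form: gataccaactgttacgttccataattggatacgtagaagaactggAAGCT

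Lep (ENSMUSG00000059201, chr6:29060220-29073877) was listed at 0 TPM in each AAV-GFP library and, for replicates 1, 2 and 3 of the leptin vector, at 0.751, 0.547 and 3.56 TPM. The groups did not overlap, and replicate 3 stood above the other two. The exact permutation test (two-sided) returned p = 0.1, the lowest that 3 against 3 libraries allow. With a mean of 0.810 TPM over the 6 libraries Lep lay under the filter and was not in the gene test. The 420 nt transcript Lep-202, which holds 294 coding and 126 other bases and is annotated as incomplete, took 87.8%, 87.0% and 93.2% of the Lep signal in these 3 libraries. The rest was on Lep-201, of 3259 nt, of which 501 are coding and 2758 are not. The leptin sequence in the vector is not stated in the sources used here.

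Because fat cells are the main source of leptin, their markers were read in the same libraries. The summed TPM of 8 adipocyte markers was 7.08 to 9.45 with AAV-GFP and 10.5 to 11.4 with AAV-Leptin-GFP, without overlap, and 3 of the 8 reached the filter with none called. Adipoq, the fat hormone adiponectin, was listed at 0, 0 and 0.0669 TPM with AAV-GFP and at 0.118, 0.182 and 0 TPM with AAV-Leptin-GFP. Replicate 3 of the leptin group, the library with the most Lep, was at 0 for Adipoq and the highest of the 6 for the fatty acid carrier Fabp4 (3.86 TPM, against 0.494 to 2.55 TPM in the others), Cidec (0.174 TPM), Retn (0.109 TPM) and Cfd (0.0985 TPM). The same library was the lowest of the 6 for Lipe (3.74 TPM) and Plin1 (0.268 TPM). For Pparg (2.28 TPM) it lay below the other leptin libraries (2.51 and 2.80 TPM) and above the controls (1.75 to 2.14 TPM). The part of these markers in the Lep values was not tested. That library also had the highest sum of 6 erythroid (red cell) markers, 1726 TPM, against 170.2 to 374 TPM in the other 5, and the part of this in the result was not tested.

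Lepr (ENSMUSG00000057722, chr4:101717404-101815352) was scarce in both groups. It stood at 1.04, 0.739 and 1.61 TPM with AAV-GFP and at 1.18, 1.30 and 1.64 TPM with AAV-Leptin-GFP. The groups overlapped, and the difference was 0.17 (SE 0.20, 95% interval -0.31 to 0.65, limma adjusted p = 0.698). This moved with single libraries: leaving out control replicate 2 gave 0.03, control replicate 3 gave 0.33 and leptin replicate 3 gave 0.09. It was 0.04 with quantile normalization and 0.31 with a pseudocount of 0.1. The interval thus reaches to about the size of the difference seen in Tyk2 and beyond, so a difference of that size in Lepr is not excluded. On log2(TPM + 1) the same difference stands for a larger ratio of TPM in a gene as scarce as Lepr than in Tyk2. Among the 15108 tested genes, 3.87% had a lower mean than Lepr.

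Taken by transcript, most coding signal of Lepr was listed on the short form. Lepr-203 stood at 0.762, 0.657 and 0.532 TPM with AAV-GFP and at 0.800, 0.976 and 0.878 TPM with AAV-Leptin-GFP. The leptin libraries were all above the control libraries. The long form Lepr-201, the one with the STAT3-activating tail, stood at 0.0993, 0.0823 and 0.0674 TPM with AAV-GFP and at 0.119, 0.0767 and 0.0476 TPM with AAV-Leptin-GFP, and these groups overlapped. The read-through form was listed at 0 in every library.

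The long form made up 11.5%, 11.1% and 11.2% of the protein-coding Lepr signal with AAV-GFP and 12.99%, 7.28% and 5.14% with AAV-Leptin-GFP. The control libraries lay close together and the leptin libraries on both sides of them (difference -2.83 percentage points, exact permutation p = 0.4). The short form exceeded the long form 7.67 to 7.98 times in the control libraries and 6.70 to 18.5 times in the leptin libraries. The number of reads behind these shares is unknown.

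Non-coding Lepr transcripts set the spread of the gene total. Lepr-207, annotated as a processed transcript with no coding sequence, was listed at 1.01 TPM in AAV-GFP replicate 3, at 0.714 TPM in AAV-Leptin-GFP replicate 3 and at 0 in the other 4 libraries. Summed over protein-coding transcripts alone, Lepr stood at 0.861, 0.739 and 0.599 TPM with AAV-GFP and at 0.919, 1.05 and 0.926 TPM with AAV-Leptin-GFP. Here the groups did not overlap (0.733 ± 0.131 against 0.966 ± 0.0753 TPM, exact permutation p = 0.1). Such separation was common here: 25.2% of the tested genes showed it, 13.3% with the leptin libraries higher.

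**Figure D1:**
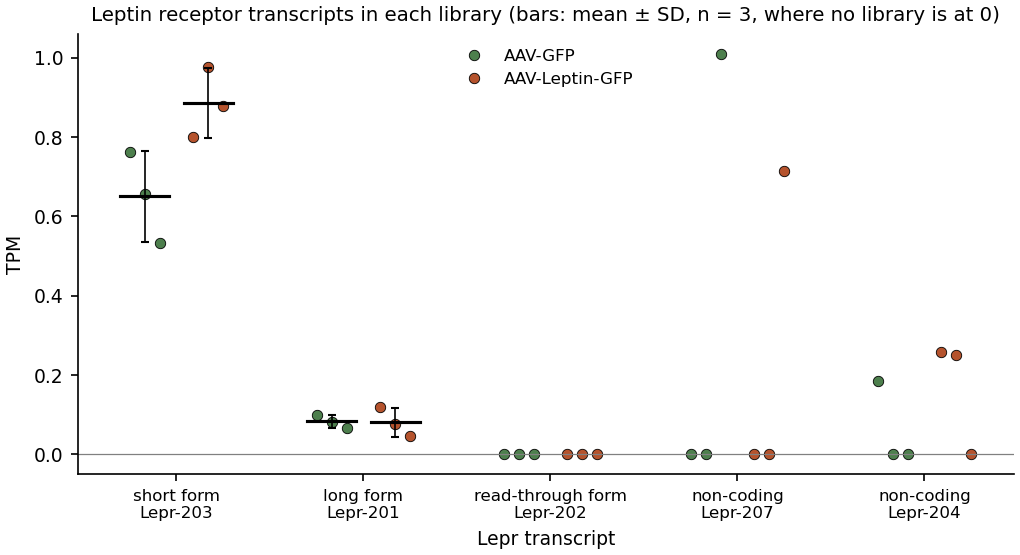
TPM of 5 Lepr transcripts (vertical axis) by transcript (horizontal axis), 1 point a library, green for AAV-GFP and red for AAV-Leptin-GFP, with mean ± SD bars where no library is listed at 0. The short form lies between 0.532 and 0.976 TPM, the long form between 0.0476 and 0.119 TPM, and the non-coding Lepr-207 is above 0 in 1 library of each group.

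The gp130 chain, Lifr and Cntfr were abundant, Osmr and Il6ra were less so, and no tested receptor gene of the group was called. Il6st (ENSMUSG00000021756, chr13:112464070-112510086) stood at 140, 134 and 141 TPM with AAV-GFP and at 131, 145 and 123 TPM with AAV-Leptin-GFP. The leptin libraries lay on both sides of the control libraries. The difference was -0.06 (SE 0.06, 95% interval -0.21 to 0.09, limma adjusted p = 0.648). Il6st exceeded Lepr 75.2 to 182 times within a library.

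Il6st signal was split between 2 transcripts with the same 2751 coding bases, Il6st-203 of 8678 nt and Il6st-201 of 5207 nt. Il6st-203 took 67.2% to 74.0% of their sum over the 6 libraries, with overlapping groups. Another transcript, Il6st-206, with 492 coding bases, did not exceed 0.506 TPM.

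Lifr (ENSMUSG00000054263, chr15:7090614-7197489), whose product pairs with gp130 for leukaemia inhibitory factor and ciliary neurotrophic factor, stood at 121, 122 and 119 TPM with AAV-GFP and at 122, 125 and 107 TPM with AAV-Leptin-GFP. AAV-Leptin-GFP replicate 3 was the lowest of the 6 libraries, and the groups overlapped. The difference was -0.04 (SE 0.06, 95% interval -0.19 to 0.11, limma adjusted p = 0.785).

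Among the Lifr transcripts the groups separated where the gene total did not. The most abundant, Lifr-203 of 9655 nt, stood at 91.9, 93.3 and 88.7 TPM with AAV-GFP and at 86.6, 87.0 and 79.0 TPM with AAV-Leptin-GFP, with all leptin libraries below all controls (difference -0.12, SE 0.05, limma adjusted p = 0.314 over 33615 tested transcripts). Lifr-201, of 4143 nt with the same coding sequence, stood at 7.91, 7.34 and 7.45 against 8.14, 10.4 and 8.46 TPM, with all leptin libraries above all controls (0.22, SE 0.12, limma adjusted p = 0.406). Neither transcript passed.

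Transcripts that encode the shorter Lifr form summed to 1.3, 1.11 and 1.88 TPM with AAV-GFP and to 1.17, 2.86 and 1.6 TPM with AAV-Leptin-GFP. They made up 1.09% to 2.86% of both coding forms, with overlapping groups (exact permutation p = 0.5 for the share). Within them, Lifr-206, annotated as a target of nonsense-mediated decay, was listed at 0.140, 0.272 and 0 TPM with AAV-GFP and at 1.17, 1.6 and 0.980 TPM with AAV-Leptin-GFP, while Lifr-207 was listed above 0 in 2 AAV-GFP libraries (0.861 and 1.53 TPM) and at 0 in the other 4. These 2 transcripts have coding sequences of the same length, and the split between transcripts that share sequence is an estimate. A 299 nt transcript without coding sequence, Lifr-205, held 17.5 to 25.8 TPM.

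Osmr (ENSMUSG00000022146, chr15:6813577-6874969, minus strand), the second gp130 partner, which serves oncostatin M, was 10.8 to 13.2 times less abundant than Lifr within a library. It stood at 11, 9.45 and 9.71 TPM with AAV-GFP and at 11.3, 9.46 and 8.56 TPM with AAV-Leptin-GFP, overlapping ranges (difference -0.04, SE 0.11, 95% interval -0.31 to 0.23, limma adjusted p = 0.875). Transcripts of Osmr that keep an intron held 3.64%, 0.689% and 4.61% of its signal with AAV-GFP and 13.4%, 15.4% and 1.82% with AAV-Leptin-GFP. Replicates 1 and 2 of the leptin group were above all others and replicate 3 was not (exact permutation p = 0.3).

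The ligand-binding chains lay at opposite ends of the scale. Cntfr (ENSMUSG00000028444, chr4:41657498-41697089, minus strand), the receptor for ciliary neurotrophic factor, stood at 129, 121 and 117 TPM with AAV-GFP and at 117, 129 and 98.3 TPM with AAV-Leptin-GFP. Il6ra (ENSMUSG00000027947, chr3:89864059-89913196, minus strand), the receptor for interleukin 6, stood at 0.714, 0.688 and 0.286 TPM with AAV-GFP and at 0.688, 0.575 and 0.839 TPM with AAV-Leptin-GFP. Cntfr exceeded Il6ra 117 to 407 times within a library, and both genes had overlapping groups. The Cntfr difference was -0.10 (SE 0.10, 95% interval -0.32 to 0.13, limma adjusted p = 0.642).

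Il6ra lay under the filter, and an exact permutation test of its TPM gave p = 0.6. Its transcript Il6ra-201 varied from 0.102 to 0.662 TPM, whereas Il6ra-202, of 8639 nt, stayed between 0.178 and 0.224 TPM. For Cntfr, the coding transcript Cntfr-203 held 68.1% to 75.1% of the signal and the 699 nt non-coding Cntfr-201 stood at 26.5 to 34.7 TPM. The fragment Cntfr-206, without coding sequence, was listed at 1.07, 0 and 0 TPM with AAV-GFP and at 1.77, 1.445 and 1.76 TPM with AAV-Leptin-GFP, and was the member transcript with the smallest p (difference 1.06, SE 0.36, limma unadjusted p = 0.0243, adjusted p = 0.188). At an unadjusted p under 0.05, 18.3% of all tested transcripts were past the threshold, 12.3% higher and 6.01% lower, against 1 higher and 0 lower of 17 tested member transcripts.

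Among the kinases Jak1 was by far the most abundant. Jak1 (ENSMUSG00000028530, chr4:101152367-101265282, minus strand), which serves most gp130 receptors, stood at 172, 175 and 186 TPM with AAV-GFP and at 170, 193 and 193 TPM with AAV-Leptin-GFP. The groups overlapped (difference 0.06, SE 0.06, 95% interval -0.08 to 0.20, limma adjusted p = 0.641). Jak1 made up 89.5% to 92.2% of the summed TPM of the 3 kinases. Of its 8 transcripts that of 4906 nt, with 3459 coding bases, held 167 to 190 TPM.

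Jak2 (ENSMUSG00000024789, chr19:29251828-29313080), the kinase bound by the leptin receptor, stood at 9.96, 10.1 and 10.8 TPM with AAV-GFP and at 11.5, 10.0 and 10.3 TPM with AAV-Leptin-GFP. These ranges overlapped, and the difference was 0.04 (SE 0.08, 95% interval -0.16 to 0.24, limma adjusted p = 0.829). Its signal was spread over 3 transcripts with the same 3396 coding bases, which differ outside the coding part.

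Within this set the groups separated in how the signal was divided. That of 5030 nt stood at 6.69, 6.57 and 6.19 TPM with AAV-GFP and at 8.68, 6.89 and 10.3 TPM with AAV-Leptin-GFP, without overlap (difference 0.35, SE 0.15, limma adjusted p = 0.297). That of 3995 nt stood at 3.26, 3.49 and 2.42 TPM with AAV-GFP and at 2.83, 3.14 and 0 TPM with AAV-Leptin-GFP. The one of 4947 nt was listed at 2.19 TPM in AAV-GFP replicate 3 and at 0 elsewhere. The 5030 nt transcript thus took 57.3% to 67.2% of Jak2 with AAV-GFP and, in the leptin libraries, 75.4%, 68.7% and 100% (p = 0.1 in the exact permutation test, the smallest possible). The value of 100% came from replicate 3 of the leptin group, in which the other transcripts were listed at 0. The split between transcripts that share sequence is an estimate. Of all tested transcripts, 24.6% had groups without overlap, 15.0% with leptin higher.

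Tyk2 (ENSMUSG00000032175, chr9:21104068-21131243, minus strand), the third kinase of the gp130 receptors, had the smallest p of the members. It stood at 6.25, 4.74 and 5.82 TPM with AAV-GFP and at 8.38, 8.199 and 7.47 TPM with AAV-Leptin-GFP. Every leptin library was above every control library (5.60 ± 0.778 against 8.02 ± 0.481 TPM). The difference was 0.46 (SE 0.12, 95% interval 0.18 to 0.73), with a limma unadjusted p of 0.00511 and an adjusted p of 0.0958, so that Tyk2 was not called. Its share of the 3 kinases was 2.49% to 3.32% with AAV-GFP and 3.54% to 4.40% with AAV-Leptin-GFP.

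Each class of Tyk2 transcript was higher in mean with leptin. The main coding transcript, of 4770 nt, stood at 5.49, 4.37 and 5.08 TPM with AAV-GFP and at 6.48, 6.83 and 5.49 TPM with AAV-Leptin-GFP, ranges that overlapped at the highest control and the lowest leptin library (difference 0.28, SE 0.14, limma adjusted p = 0.353). A transcript of 1662 nt, annotated as coding with 477 coding bases against 3552 in the main one, stood at 0.467, 0.176 and 0.369 against 0.872, 0.702 and 1.07 TPM. Transcripts that keep an intron summed to 0.287, 0.194 and 0.368 against 1.03, 0.665 and 0.908 TPM. The latter 2 sets did not overlap between the groups.

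Intron-keeping transcripts took 4.59%, 4.08% and 6.32% of Tyk2 with AAV-GFP and 12.3%, 8.11% and 12.2% with AAV-Leptin-GFP. The groups did not overlap (difference 5.84 percentage points, exact permutation p = 0.1). This is read against the whole table: of 7342 tested genes with such a transcript above 0, 42.9% had leptin libraries all above the control libraries in this share and 0.804% all below, and the median difference was 1.90 percentage points. Over all transcripts, those that keep an intron took 2.10% to 2.50% of a library with AAV-GFP and 3.24% to 3.75% with AAV-Leptin-GFP, and the part of this in the Tyk2 result was not tested. With protein-coding transcripts alone, the Tyk2 difference was 0.37 (limma adjusted p = 0.154).

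**Figure D2:**
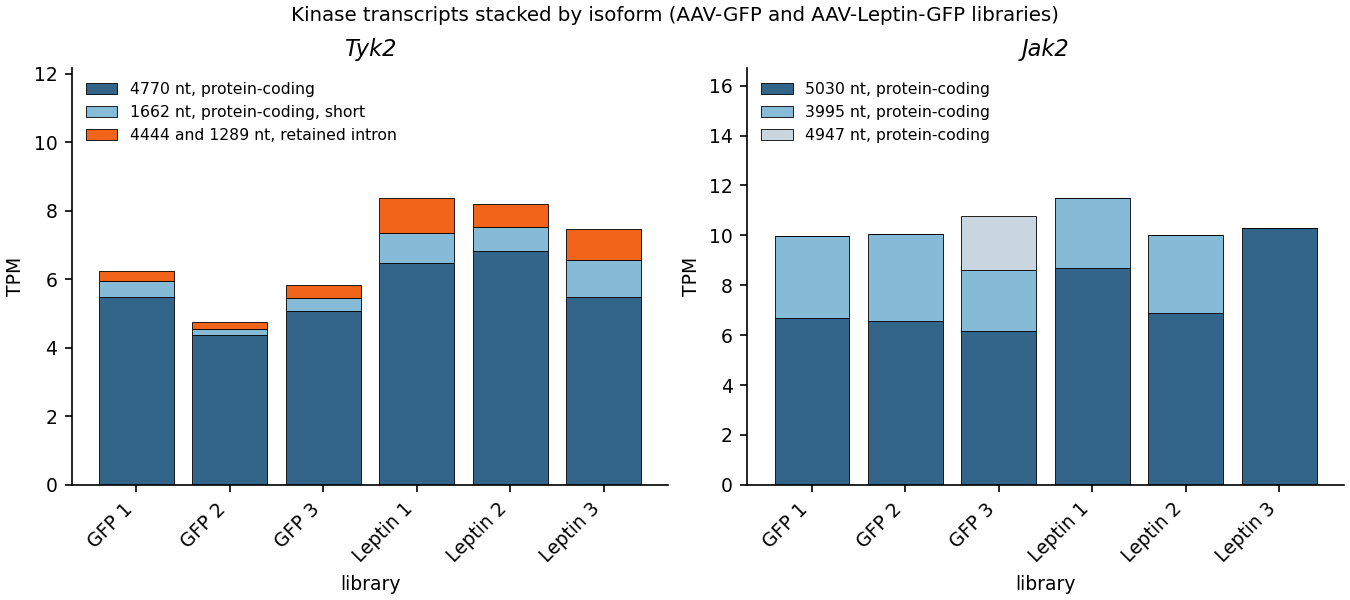
TPM (vertical axis) of Tyk2 and Jak2 transcripts stacked for each of the 6 libraries (horizontal axis). For Tyk2 all 3 leptin bars are taller than all 3 control bars and the intron-keeping part is larger, 0.665 to 1.03 TPM against 0.194 to 0.368 TPM. For Jak2 the bars are of like height, 9.96 to 11.5 TPM, and the composition varies, with the 5030 nt transcript alone in leptin replicate 3.

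Over all 10 genes, 8 passed the filter on low values, 4 of these had differences above 0 and 4 below, and 0 were called in either direction by limma. In the whole comparison 1.61% of tested genes were called, 1.54% higher and 0.0662% lower with leptin. At an unadjusted p under 0.05, 1 of the 8, Tyk2, was past the threshold, against 19.5% of all tested genes. The median difference of the 8 was 0.0013, beside -0.00016 over all tested genes. For the 7 tested members other than Tyk2 the differences were at most 0.17 in size. The groups did not overlap in 1 of the 8 with leptin higher, against 13.3% of all tested genes, and in 0 with leptin lower, against 11.9%. Of 17 tested member transcripts 0 were called by limma, against 0.131% of all tested transcripts (0.107% higher, 0.0238% lower). The groups did not overlap in 3 with leptin higher and in 1 with leptin lower, against 24.6% of all tested transcripts (15.0% higher, 9.59% lower).

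**Figure D3:**
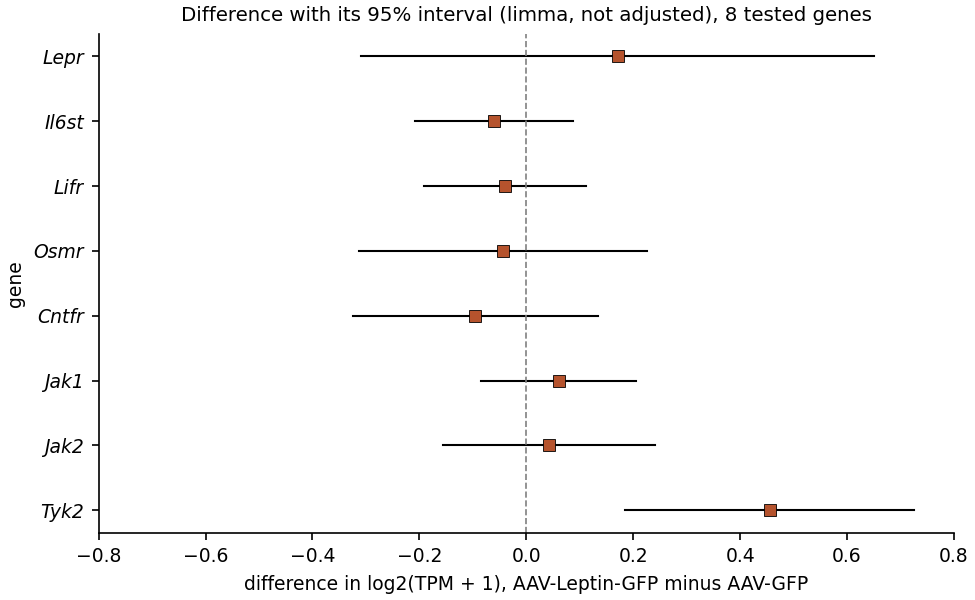
Difference in log2(TPM + 1), AAV-Leptin-GFP minus AAV-GFP (horizontal axis), with its 95% interval from limma for the 8 genes past the filter (vertical axis). The interval of Tyk2, 0.18 to 0.73, lies above 0, the other 7 span 0, and that of Lepr is the widest, -0.31 to 0.65.

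By mean over the 6 libraries the order of the levels was Jak1 (182 TPM), Il6st (136), Lifr (119), Cntfr (119), Jak2 (10.4), Osmr (9.91), Tyk2 (6.81), Lepr (1.25), Lep (0.810) and Il6ra (0.632). Among neighbours in this order the ranges overlapped for Il6st and Lifr, Lifr and Cntfr, Jak2 and Osmr, Lepr and Lep, and Lep and Il6ra. Jak1 was above Il6st in 6 of 6 libraries, and so was Il6st above Lifr. Cntfr, the lowest of the abundant group, exceeded Jak2 11.4 times in mean. Jak1, Il6st, Lifr and Cntfr thus stood high, Jak2, Osmr and Tyk2 in the middle, and the receptor of the delivered ligand near the filter, in both groups.

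**Figure D4:**
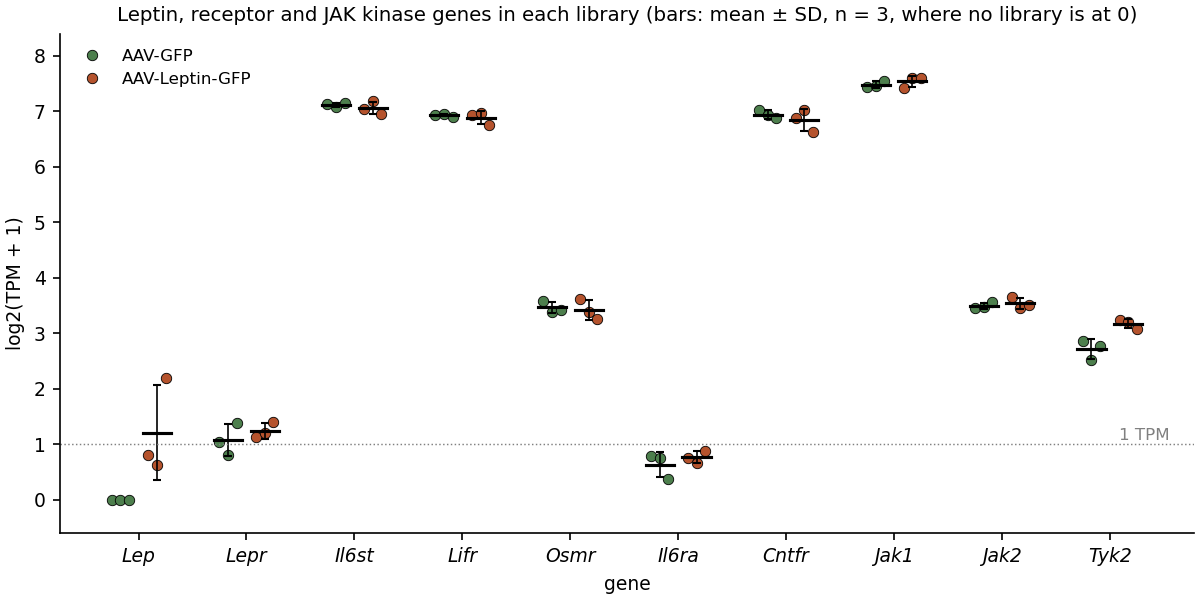
Level as log2(TPM + 1) (vertical axis) of the 10 genes (horizontal axis), 1 point a library, green for AAV-GFP and red for AAV-Leptin-GFP, with mean ± SD bars (n = 3) where no library is listed at 0 and a dotted line at 1 TPM. Jak1, Il6st, Lifr and Cntfr lie between 98.3 and 193 TPM, Jak2, Osmr and Tyk2 between 4.74 and 11.5 TPM, and Lepr, Lep and Il6ra between 0 and 3.56 TPM.

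Other genes of the pathway were read from 8 lists of ligands, receptors, adaptors, kinases and feedback genes, 88 genes in all, of which 68 passed the filter. Socs3, the feedback inhibitor that STAT3 induces, was the 1 gene called higher, and 0 were called lower. It stood at 51.9, 46.5 and 45.7 TPM with AAV-GFP and at 109, 131 and 102 TPM with AAV-Leptin-GFP, without overlap (difference 1.22, SE 0.10, limma adjusted p = 0.00835). The call of Socs3 was lost without AAV-GFP replicate 2 or 3 or AAV-Leptin-GFP replicate 1, with values of 1.20, 1.19 and 1.25 and limma adjusted p-values of 0.0839, 0.0793 and 0.0501, and with no filter on low values, where the difference stayed at 1.22 and the limma adjusted p was 0.0502. At an unadjusted p under 0.05, 6 of the 68 were higher and 1 lower, against 11.3% and 8.19% of all tested genes, and their median difference was 0.0050.

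Of 11 ligands of the gp130 group 5 passed the filter and 0 were called. Cntf, the Schwann cell cytokine that binds Cntfr, stood at 3.82, 3.64 and 4.44 TPM with AAV-GFP and at 3.599, 2.49 and 0 TPM with AAV-Leptin-GFP, with every leptin library below every control library (difference -0.97, SE 0.52, limma adjusted p = 0.356). Its size rests on AAV-Leptin-GFP replicate 3, listed at 0, and was -0.31 without it.

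Of 18 other class I cytokine receptors 10 passed the filter and 0 were called. Il11ra1, the interleukin 11 receptor that also signals through gp130, stood at 19.8, 17.9 and 15.6 TPM with AAV-GFP and at 20.6, 21 and 22 TPM with AAV-Leptin-GFP, without overlap (0.25, SE 0.09, limma adjusted p = 0.206). With protein-coding transcripts alone the Il11ra1 difference was 0.02 (limma adjusted p = 0.935), and without AAV-GFP replicate 3 it was 0.16. The growth hormone receptor Ghr was the most abundant of this list at 32.3 ± 1.09 and 31.7 ± 2.92 TPM. The 6 receptors of interferons and interleukin 10, which use Jak1 together with Tyk2 or, for the interferon gamma receptor, Jak2, had 0 called. Among them Ifnar2 stood at 26.3 ± 2.49 and 21.9 ± 1.62 TPM (-0.25, limma adjusted p = 0.182) and Il10rb at 52.8 ± 4.42 and 47.7 ± 4.12 TPM (-0.14, limma adjusted p = 0.409; leaving out control replicate 1 gave -0.08 and leptin replicate 3 gave -0.07).

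Of 23 genes that bind or restrain Janus kinases, a list that also holds the fourth kinase Jak3, 22 passed the filter and 0 were called. Jak3, known mainly from lymphocytes, had the smallest p of this list. It stood at 2.52, 0.949 and 1.09 TPM with AAV-GFP and at 4.55, 3.90 and 3.54 TPM with AAV-Leptin-GFP, without overlap (1.03, SE 0.24, limma adjusted p = 0.0802). Without AAV-GFP replicate 1, the highest control library, the difference was 1.303 and the limma adjusted p 0.0171. The 7 T cell markers summed to 0.811 to 3.79 TPM with AAV-GFP and to 0.840 to 2.79 TPM with AAV-Leptin-GFP, and 0 of them reached the filter. The adaptor Grb2 was the most abundant gene of the list, at 134 ± 7.14 and 124 ± 4.30 TPM (-0.12, limma adjusted p = 0.290).

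In the remaining lists, leptin receptor trafficking and binding genes had 0 of 5 tested genes called, STAT factors 0 of 6, SOCS inhibitors 1 of 8, and other adipokines and leptin-responsive neuropeptides 0 of 6. Lrp1, an endocytic receptor, stood at 19.4 ± 5.73 and 26.9 ± 3.69 TPM (0.47, limma adjusted p = 0.236; 0.31 without AAV-GFP replicate 2, and 0.31 with protein-coding transcripts alone), and Clu, an extracellular chaperone that binds leptin, at 624 ± 28.8 and 629 ± 3.40 TPM. Stat5a stood at 2.96 ± 0.591 and 4.41 ± 1.13 TPM (0.44, limma adjusted p = 0.270) and Stat3, the main target of the long leptin receptor, at 167 ± 6.70 and 163 ± 8.81 TPM. Rbp4, a retinol carrier, stood at 4.05, 9.08 and 9.38 TPM with AAV-GFP and at 8.45, 10.7 and 12.9 TPM with AAV-Leptin-GFP (0.52, limma adjusted p = 0.383; 0.18 without AAV-GFP replicate 1, the lowest library) and Nampt, the most abundant of its list, at 28.9 ± 2.19 and 27.6 ± 0.670 TPM.

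The genes most like Lep in their pattern over the 6 libraries, by Pearson's r of log2(TPM + 1), were Ttll4 (r = 0.998), 9930012K11Rik (0.987) and Pde7a (0.983). For Lepr they were Gm6938 (0.995), Gm15411 (0.989) and Gm14416 (0.977). For either gene these were picked as the highest r among 15108 tested genes, from only 6 libraries. An r above 0.9 was reached by 150 tested genes with Lep and by 83 with Lepr. The points share 2 treatment groups, and the values are a description only.

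The libraries carried the markers of their labelled source. Summed over 19 sensory neuron markers the level was 25983 to 26635 TPM with AAV-GFP and 24254 to 24867 TPM with AAV-Leptin-GFP, and over 9 satellite glia markers 8299 to 9465 and 7468 to 8205 TPM. Schwann cell markers (10) summed to 979 to 1015 and 863 to 945 TPM, and endothelial markers (8) to 77.3 to 79.9 and 63.2 to 73.3 TPM. In these 4 lists the leptin libraries were all below the control libraries, and 1 of their genes was called, Egr2 of the Schwann cell list, which was higher (1.29, limma adjusted p = 0.0155). Macrophage markers (12) summed to 81.5 to 113 and 93.8 to 100.5 TPM, with overlap, and neutrophil, fibroblast and mural cell sums overlapped too. Fewer cells of a type and less RNA per cell cannot be told apart in such bulk samples, and the part of these shifts in the values above was not tested.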

How the data were processed

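The authors deposited TPM values, 1 per Ensembl transcript and library. The tools listed, per the submitters' processing notes and without their roles, are Salmon 1.6.0, DESeq2 1.34.0, Trim Galore 0.6.6 and FastQC 0.11.9, and the same notes list mm10 and GRCm38. Which annotation release was used is not stated in the sources used here: 97.4% of the 140789 transcript identifiers occur in GENCODE M21, 37 of them with the same version. TPM keep no read numbers, so depth is unknown and no counting intervals are given. The split among transcripts that share sequence is an estimate, so values of single transcripts are less certain than gene sums.

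Libraries were grouped by the treatment in the labels. Transcript TPM were summed by gene, genes that averaged 1 TPM or more were kept, and log2(TPM + 1) was fitted with limma (version 3.58.1, R 4.3.3; two-sided moderated test, variance trend). The 33615 transcripts at that mean were fitted in the same way. Single values were compared by exact two-sided permutation tests. The fits were tested on simulated data. Tables and plots used Python 3.11.15, pandas 2.3.3, numpy 2.4.6 and matplotlib 3.10.9.

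The members and lists were chosen with earlier results of these data known. Text names all members, their transcripts with a mean of at least 0.3 TPM where they bear on a result, from each list the called genes or else the one with the smallest p and the most abundant one, and the 3 genes most correlated with Lep and Lepr. Some member transcripts below that mean are also given. They are forms of interest and were chosen after their values were seen. Adipoq, Fabp4, Cidec, Retn, Cfd, Lipe, Plin1 and Pparg were named likewise. A gene that the rule for the lists names is not reported here. Alternatives changed the pseudocount, filter, scaling, transcripts, variance trend, block or libraries.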

Additional observations from a re-analysis of the deposited data

How the results depend on the processing

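In all 15 alternatives of the gene fit, 0 of the members were called higher or lower, and so were 0 member transcripts in 11 alternatives of the transcript fit. Tyk2 kept its sign throughout, with differences of 0.34 to 0.53 and limma adjusted p-values of 0.0751 to 0.253. Signs that turned among uncalled genes were small. Leaving out 1 library in turn gave -0.084 to 0.030 for Lifr, -0.14 to 0.038 for Osmr, -0.18 to 0.012 for Cntfr, -0.012 to 0.079 for Jak2, -0.079 to 0.044 for Ghr, -0.010 to 0.049 for Clu and -0.067 to 0.010 for Stat3, where the upper ends for Lifr, Osmr, Cntfr, Ghr and Stat3 came without AAV-Leptin-GFP replicate 3. Quantile normalization gave -0.049 for Jak2 and 0.0022 for Stat3, and removal of mitochondrially encoded genes 0.0018 for Ghr and 0.0021 for Stat3. The Lep difference of 1.21 was 3.66 with a pseudocount of 0.1 and 0.72 without AAV-Leptin-GFP replicate 3.

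The share of Lepr on protein-coding transcripts differed by -1.447 percentage points and by -19.4 to 11.9 when a library was left out. For Cntfr the values were -0.23 and -2.02 to 1.70, and for Cntfr-203 within Cntfr -0.74 and -2.46 to 1.05.

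Over all genes 233 were called higher and 10 lower. The counts were 4 and 0 with no filter, 53 and 4 with protein-coding transcripts only, 35 and 0 with no variance trend, 3 to 409 and 0 to 11 when a library was left out, and for the lower genes 27 with a filter of at least 5 TPM and 3 without mitochondrially encoded genes. The 1 pathway gene called, Socs3, became 0 with no filter and 0 to 2 when a library was left out. The cause was not tested. Same-numbered libraries did not deviate together (correlations 0.034, -0.070 and -0.024), and the replicate block gave 74 genes higher and 0 lower.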
